A study of Mus musculus with 6 samples.

Results

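Cytotoxic lymphocytes store granzymes (serine proteases), the pore-forming protein perforin and their carrier and control proteins in secretory granules, and release them at the contact with a target cell. The genes described here are 9 of that machinery, taken as a named set: the granzymes Gzma, Gzmb, Gzmk and Gzmm, the perforin gene Prf1, the granule membrane protein Nkg7, the protease Ctsw, the granule proteoglycan Srgn and the granzyme B inhibitor Serpinb9. All 9 were measured, each by 1 probe set with exactly 1 gene symbol, among 22180 genes tested. CD4 T cells can express granule genes too, and granzyme B is known as an effector molecule of both helper and regulatory T cells.

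The cells came from the lungs of wild-type (WT) mice sensitised and challenged with house dust mites (HDM), an allergen that provokes allergic airway inflammation, or given PBS, the saline control. They were sorted as CD4+ CD45+ cells without CD11b and F4/80, 2 surface proteins of myeloid cells, and their total RNA was hybridised to Affymetrix Mouse Gene arrays. There were 3 HDM and 3 PBS arrays, 1 per biological replicate; doses, times, age and the number of mice in a sample are not stated in the labels, and the p-values measure only the spread between these samples. Values are RMA log2 signals, on which a difference of 1 is a doubling, and levels of different genes cannot be ranked on this scale. A gene is called where limma, a linear model fitted over all genes, gave an adjusted p below 0.05.

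The sorted cells carried the transcripts of their label. Cd4 lay between 12.47 and 12.60 on the PBS arrays and between 12.57 and 12.73 on the HDM arrays. With limma 0 of 8 genes of CD4 T cell identity were called, against 2.39% higher and 1.56% lower over all genes, and 2 had an unadjusted p below 0.05. With the replicate number as a block 2 of the 8 were called higher and 0 lower, against 5.95% and 6.01% of all genes. They were Cd3g (limma adjusted p = 0.0308) and Cd5 (0.0458), named after their values were seen. The arrays numbered 3 gave high values for the granule genes: all 9 members were highest on replicate 3 among the PBS arrays and 7 of 9 were so in both groups, while 19.1% of all genes were. Results that change without 1 array are therefore given with and without it.

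Between HDM and PBS the granule genes did not all move one way. Gzma and Prf1 fell and Ctsw rose, so 1 of 9 members was called higher, against 2.39% of all genes, and 2 of 9 were called lower, against 1.56% of all genes. Gzmb was higher on average by more than any other member but did not pass without a block, and Gzmk, Gzmm, Nkg7, Srgn and Serpinb9 did not pass either. The median log2 difference of the members was −0.18, beside −0.01 over all genes tested. In RNA from sorted cells in bulk, fewer cells that express a gene and less RNA in each cell cannot be told apart.

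Promoters are shown for the pair of genes that fell, for Gzmb and for Gzmk, the neighbour of Gzma on the chromosome. Each line gives the 250 bases before the transcript start, 5′ to 3′, from RefSeq (build GRCm38.p6), which held 8 of the 9 members. Capitals mark matches, on either strand, to motifs named for transcription factors of lymphocytes: Runx (TGTGGT), T-box (GGTGTGA), AP-1 (TGANTCA), STAT (TTCNNNGAA) and CRE (TGACGTCA).
Gzma, chr13:113100982-113101231, minus strand: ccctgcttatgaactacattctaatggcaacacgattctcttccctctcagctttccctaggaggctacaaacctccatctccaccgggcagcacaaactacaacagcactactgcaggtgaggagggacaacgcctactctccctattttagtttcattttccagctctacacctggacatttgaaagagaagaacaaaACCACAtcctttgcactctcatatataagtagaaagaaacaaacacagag
Prf1, chr10:61297586-61297835, plus strand: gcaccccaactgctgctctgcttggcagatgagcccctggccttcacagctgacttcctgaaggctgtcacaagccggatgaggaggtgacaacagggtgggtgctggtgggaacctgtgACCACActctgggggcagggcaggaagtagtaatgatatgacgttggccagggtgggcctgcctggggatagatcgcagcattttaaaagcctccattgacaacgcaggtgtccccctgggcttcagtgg
Gzmb, chr14:56262335-56262584, minus strand: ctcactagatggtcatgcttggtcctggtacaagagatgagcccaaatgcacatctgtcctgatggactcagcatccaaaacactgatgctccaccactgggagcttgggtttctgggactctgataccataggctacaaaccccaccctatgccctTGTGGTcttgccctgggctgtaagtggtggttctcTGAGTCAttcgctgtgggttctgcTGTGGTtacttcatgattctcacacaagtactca
Gzmk, chr13:113180966-113181215, minus strand: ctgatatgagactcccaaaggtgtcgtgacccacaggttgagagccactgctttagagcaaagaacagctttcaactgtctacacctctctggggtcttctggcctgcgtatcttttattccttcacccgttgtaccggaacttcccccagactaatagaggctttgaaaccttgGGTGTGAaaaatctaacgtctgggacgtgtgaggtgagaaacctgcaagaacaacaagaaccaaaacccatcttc
The Runx letters were in the Gzma, Prf1 and Gzmb windows, and in 14.05% of all 32851 promoter windows of that length in RefSeq. They were also in windows, not shown, of Gzmm, Nkg7 and Srgn, none of which passed. The AP-1 letters were in the Gzmb window, 58 bases before the start, and in 6.75% of all windows. The T-box letters were in the Gzmk window, in windows of Nkg7 and Gzmm that are not shown, and in 3.33% of all. The STAT and CRE letters, in 7.02% and 1.55% of all windows, had no match in the 4 windows shown. No matches overlapped each other in them. Gzmm and Nkg7 had STAT matches in windows not shown. The 4 windows were picked with the changes of the genes known, and no link between letters and changes was tested. A match is a run of letters and was not tested as a binding site.

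Among the granzymes, Gzma fell. It encodes granzyme A, a protease that cuts after basic residues and is the classical granzyme of natural killer and CD8 T cells. Its log2 signal (probe set 17296286) was 7.33, 7.21 and 7.61 on PBS replicates 1, 2 and 3 and 5.51, 5.57 and 6.18 on the HDM replicates. The groups did not overlap, and the lowest PBS array was above the highest HDM array. The means were 7.38 ± 0.21 in PBS and 5.75 ± 0.37 in HDM (SD, n = 3 each), a difference of −1.63 (95% interval −2.07 to −1.19, limma adjusted p = 0.00524). This is a signal 3.10-fold lower in HDM. The call held without any single array, with differences from −1.84 to −1.51 and limma adjusted p up to 0.0346.

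Gzmb moved the other way. Granzyme B cuts after aspartate and activates caspases in the target cell. Its log2 signal (probe set 17307033) was 8.04, 8.26 and 9.08 in PBS and 8.98, 9.95 and 10.35 in HDM. The groups overlapped by a single pair of arrays, since HDM replicate 1 lay just below PBS replicate 3. The mean difference was 1.30 (95% interval 0.44 to 2.17), 2.46-fold, and it missed the threshold (limma adjusted p = 0.112). In the arrays numbered 1, 2 and 3 the HDM value exceeded the PBS value by 0.94, 1.69 and 1.27. The labels do not say that the numbers pair the samples, so calls that need the block depend on a pairing that is not known. With the replicate number as a block Gzmb was called higher (limma adjusted p = 0.00181), and then 2 of 9 members were higher, against 5.95% of all genes, and 3 of 9 lower, against 6.01%. Without both arrays numbered 3 it was called as well (1.32, limma adjusted p = 0.0174), but without any single array it was not called in any of the 6 fits (1.01 to 1.69, limma adjusted p from 0.0624 to 0.333).

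Gzmk and Gzmm did not pass. Granzyme K, a tryptase like granzyme A, had log2 signals of 8.54, 8.60 and 8.79 in PBS and 8.21, 8.76 and 8.41 in HDM (probe set 17296294). HDM replicate 2 lay within the PBS range and the other HDM arrays lay below it. The difference was −0.18, with a 95% interval from −0.53 to 0.17, so a fall as large as that of its neighbour Gzma lay outside the interval. Granzyme M, which cuts after methionine or leucine, had values of 6.79, 6.71 and 7.003 in PBS and 6.64, 6.49 and 6.78 in HDM (probe set 17234917). The groups overlapped, and the difference was −0.20 (95% interval −0.47 to 0.07). Each HDM array was below the PBS array of the same number, by 0.15 to 0.23.

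**Figure D1:**
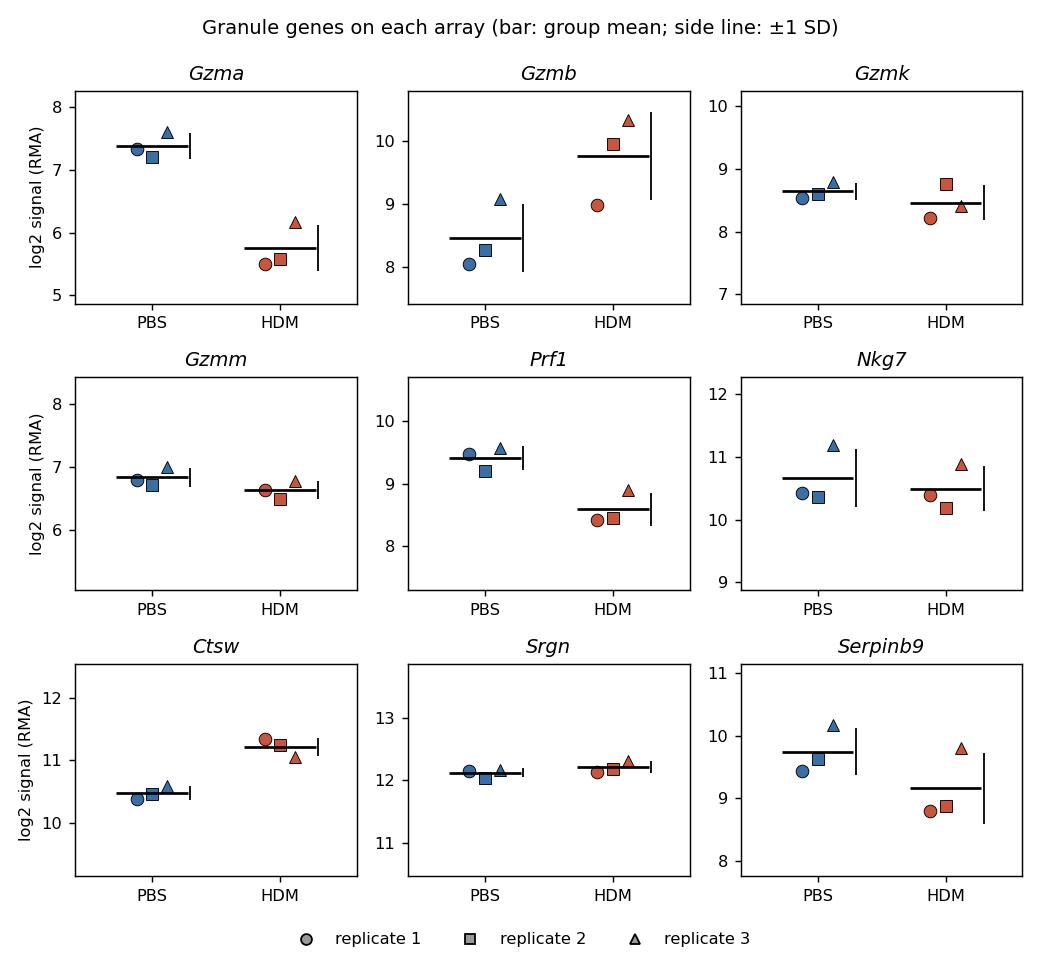
Log2 signal (RMA, vertical axis, with the same span of 3.4 units in each panel around the gene's own mean) of the 9 granule genes on the PBS and HDM arrays; symbols mark the replicate number, bars the group means and side lines 1 SD. Gzma and Prf1 are lower on all 3 HDM arrays, Ctsw is higher on all 3, and Gzmb is higher apart from HDM replicate 1, which lies beside PBS replicate 3.

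Perforin, the protein that opens the path for granzymes into the target cell, followed Gzma. Prf1 (probe set 17233694) had log2 signals of 9.47, 9.21 and 9.57 in PBS and 8.43, 8.45 and 8.90 in HDM. All HDM arrays were below all PBS arrays. The means were 9.42 ± 0.19 and 8.59 ± 0.27 (SD, n = 3 each), a difference of −0.82 (95% interval −1.18 to −0.46, limma adjusted p = 0.0308), or 1.77-fold lower in HDM. The call rested on the full set of arrays: it was lost without PBS replicate 1 (limma adjusted p = 0.113), PBS replicate 2 (0.0721), PBS replicate 3 (0.0694), HDM replicate 1 (0.123) or HDM replicate 2 (0.133), with the difference between −0.93 and −0.74 in these fits, and it held without HDM replicate 3 (0.00538).

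Ctsw, a cysteine protease of cytotoxic lymphocytes whose substrates are little known, rose. Its log2 signal (probe set 17361605) was 10.38, 10.46 and 10.59 in PBS and 11.34, 11.25 and 11.05 in HDM. Every HDM array was above every PBS array, and HDM replicate 3 was the lowest of its group although replicate 3 was the highest in PBS. The difference was 0.73 (95% interval 0.50 to 0.97, limma adjusted p = 0.00929), or 1.66-fold. It missed the threshold without PBS replicate 2 (0.73, limma adjusted p = 0.0597) or HDM replicate 2 (0.72, 0.0555). Across the 9 members, 3 had groups that did not overlap, 1 with HDM above PBS, as 10.8% of all genes had, and 2 with HDM below, as 11.8% had.

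Nkg7, a granule membrane protein needed for full degranulation, varied more between replicates than between groups. Its log2 signals were 10.43, 10.36 and 11.20 in PBS and 10.40, 10.19 and 10.89 in HDM (probe set 17477101), so that the arrays numbered 3 stood above the others in both groups. The difference was −0.17 (95% interval −0.75 to 0.41), and it was 0.10 without PBS replicate 3. Srgn encodes serglycin, the proteoglycan that holds granzymes and perforin in the granule and is also made by many other blood cells. It showed 12.15, 12.04 and 12.17 in PBS and 12.14, 12.18 and 12.31 in HDM (probe set 17241409). These values overlapped within a narrow range, and the interval of the difference, −0.08 to 0.26, leaves room for a rise of at most 1.19-fold.

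Serpinb9 encodes the serpin that inactivates granzyme B inside the cells that make it. Its log2 signals were 9.44, 9.63 and 10.17 in PBS and 8.80, 8.87 and 9.81 in HDM (probe set 17286365). HDM replicate 3 lay within the PBS range and the other HDM arrays below it. The difference of −0.58 (95% interval −1.25 to 0.09) did not pass (limma adjusted p = 0.353). It did with the replicate number as a block (limma adjusted p = 0.009), where each HDM array was below the PBS array of the same number, by 0.64, 0.76 and 0.36. It also passed without HDM replicate 3 (−0.91, limma adjusted p = 0.037) and without both arrays numbered 3 (−0.70, 0.00372).

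**Figure D2:**
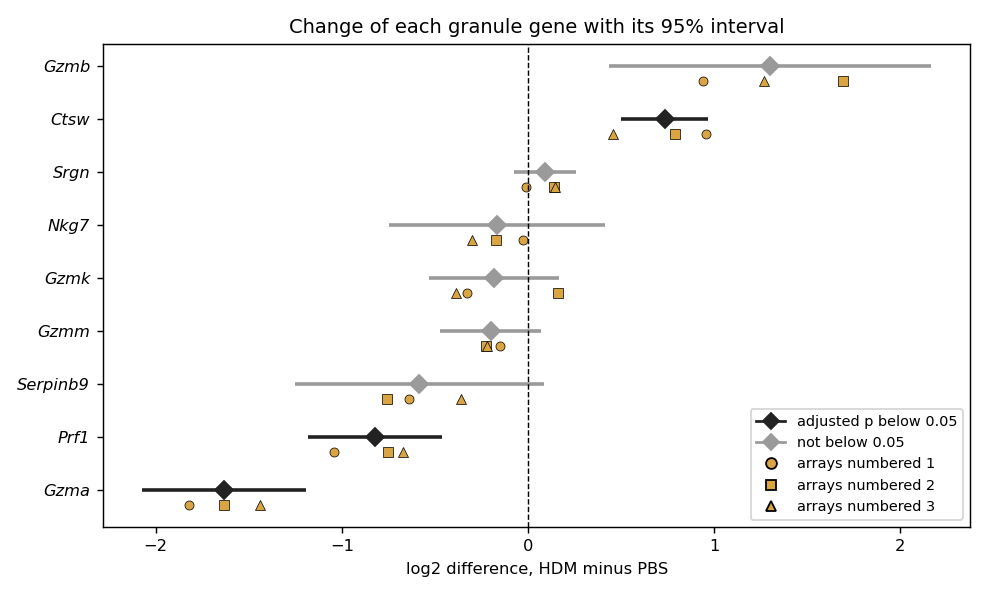
Log2 difference, HDM minus PBS (horizontal axis), of each granule gene: diamonds are the limma estimates, lines their 95% intervals, dark where the adjusted p was below 0.05, and the small symbols are the differences between arrays of the same number. The differences run from −1.63 for Gzma to 1.30 for Gzmb, whose interval is the widest of the 9.

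Changes that differ between members can be read within an array, as the log2 signal of one gene minus that of another. Gzma minus Gzmb was −0.71, −1.05 and −1.47 on the PBS arrays and −3.47, −4.38 and −4.17 on the HDM arrays. The groups did not overlap, and the change of Gzma minus that of Gzmb was −2.93 log2 units (two-sided exact permutation p = 0.1, the smallest that 3 against 3 arrays allow). The change of Gzma minus that of its neighbour Gzmk was −1.45, and minus that of Prf1 it was −0.81, each with an exact permutation p = 0.1. These 3 pairs were picked from 36 after their values were seen. Of the 36 pairs, 25 had this exact permutation p of 0.1, every pair with Gzma among them, so it does not set these 3 apart. Since no p below 0.1 can be reached with these arrays, the values stand as a description.

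The genes beside the members on the chromosome were compared through the RefSeq gene order, with the nearest 2 measured protein-coding genes on each side. Gzma and Gzmk are neighbours, and Esm1, an endothelial proteoglycan gene next to Gzmk, was lower in HDM (−0.63 ± 0.10 SE, limma adjusted p = 0.016). Gpx8, the nearest measured gene on the other side of Gzma, differed by −0.50 ± 0.15 (limma adjusted p = 0.12, and 0.012 with the block). The nearest measured gene beside Gzmb, Gzmc, differed by −0.17 ± 0.10 (limma adjusted p = 0.421). Among the neighbours of Nkg7, Etfb, a subunit of the mitochondrial electron transfer flavoprotein, was higher (0.68 ± 0.09, limma adjusted p = 0.0069). These neighbours were named after their values were seen. Apart from the member Gzma, Esm1 and Etfb were the only neighbours called with limma, and over all genes 2.39% were higher and 1.56% lower. Among measured genes Serpinb9 lies between Serpinb6b and Serpinb9b, of which Serpinb6b, another intracellular serpin, differed by −0.84 (limma adjusted p = 0.219, and 0.0166 with the block).

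The processing and membrane list held 9 genes, not all of which act on granzymes. They were the cathepsins Ctsb, Ctsc, Ctsh and Ctsl, the cystatin Cst7, the membrane proteins Cd63, Lamp1 and Lamp2, and Calr, which encodes calreticulin. All but Calr, 8 of the 9, had a difference above 0. With limma 3 rose, 0 fell and 6 did not pass, against 2.39% higher and 1.56% lower over all genes. The median log2 difference was 0.55, beside −0.01 over all genes. Cd63, a tetraspanin of lysosomes and secretory granules, had log2 signals of 7.04, 7.02 and 6.97 in PBS and 8.66, 8.16 and 7.89 in HDM, all HDM arrays being above all PBS arrays. It rose by 1.23 ± 0.18 (SE; limma adjusted p = 0.012), or 2.34-fold. Cst7, the cystatin that restrains granzyme-activating cathepsins, had 8.80, 8.88 and 8.58 in PBS and 9.71, 9.89 and 9.24 in HDM, again without overlap, and rose by 0.86 ± 0.17 (limma adjusted p = 0.0357). Ctsb, a lysosomal cathepsin, rose by 0.70 ± 0.07 (limma adjusted p = 0.00274). Ctsc, the cathepsin that activates the granzyme precursors, differed by 0.31 (limma adjusted p = 0.0964). With the replicate number as a block 6 of the 9 rose, against 5.95% of all genes. Ctsc was among them (limma adjusted p = 0.0354), named after its values were seen.

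Among 13 genes of granule trafficking and release, 1 rose, 1 fell and 11 did not pass (median 0.24). Over all genes 2.39% rose and 1.56% fell. Stx11, a syntaxin whose loss impairs cytotoxic degranulation, had log2 signals of 8.65, 9.01 and 9.37 in PBS and 9.86, 10.14 and 10.61 in HDM. The groups did not overlap, and Stx11 rose by 1.19 ± 0.23 (SE; limma adjusted p = 0.0315), or 2.28-fold. Lyst, the lysosomal trafficking regulator, fell by 0.50 (SE 0.09, limma adjusted p = 0.0289), with values of 10.46, 10.33 and 10.41 in PBS and 9.92, 9.77 and 10.02 in HDM that did not overlap. With the block 3 of the 13 rose and 1 fell, against 5.95% and 6.01% of all genes. Of the genes called in these lists, Ctsb kept its call without any single array. Cst7 and Lyst lost theirs without any array other than HDM replicate 3 (limma adjusted p up to 0.137 and 0.12), Stx11 without any one of the arrays numbered 1 or 2 (up to 0.135), and Cd63 without PBS replicate 1 or either replicate 2 (up to 0.067).

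The other granzymes and the other serpins gave no calls. Gzmc, Gzmd, Gzmf, Gzmg and Gzmn differed by −0.17 (Gzmc) to 0.12 (Gzmn), and all 5 were below the 25th percentile of the genes' mean signals, and no detection call was at hand. There were 0 of 5 called with limma, 0 with the block and 0 at an unadjusted p below 0.05. Over all genes 2.39% were higher and 1.56% lower with limma, and 5.95% and 6.01% with the block, so lists this short can give 0 calls at those shares. Of 10 measured serpins 5 lay above the 25th percentile. With limma 0 of the 10 were called, 1 had an unadjusted p below 0.05, and 1 was lower with the block, Serpinb6b. Its log2 signals were 8.80, 9.01 and 9.32 in PBS and 7.59, 8.04 and 8.99 in HDM, where HDM replicate 3 lay within the PBS range. Serpinb9b differed by −0.35 (SE 0.22). Serpinb9 and its copies are alike in sequence, and probes of one could bind transcripts of another, which was not tested.

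Of 18 measured regulators of the cytotoxic programme, 2 rose, 1 fell and 15 did not pass (median 0.12). Over all genes 2.39% rose and 1.56% fell. Bach2, a repressor of effector differentiation, fell by 0.97 (SE 0.11, limma adjusted p = 0.00474). Il15ra, which presents interleukin 15, rose by 0.71 ± 0.11 (limma adjusted p = 0.0163), and Bhlhe40, a transcription factor of activated T cells, by 0.63 ± 0.10 (limma adjusted p = 0.0155). Tbx21 and Eomes, the T-box factors of cytotoxic cells, differed by 0.03 ± 0.31 and −0.02 ± 0.12 and were named for their role, after their values were seen. With the block 7 of the 18 rose and 4 fell, against 5.95% and 6.01% of all genes.

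**Figure D3:**
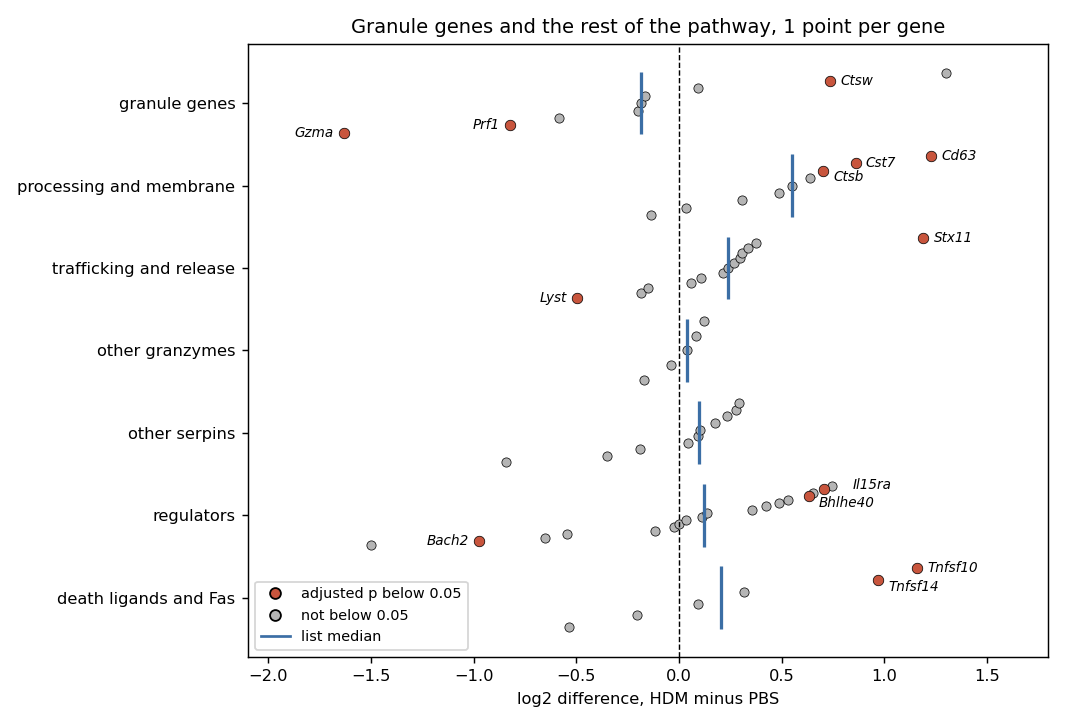
Log2 difference, HDM minus PBS (horizontal axis), 1 point per gene in the granule genes and 6 lists of the wider pathway; red points had an adjusted p below 0.05 and are named, and blue lines are list medians. The granule genes spread from −1.63 to 1.30, while 8 of 9 points of the processing and membrane list lie above 0.

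Death ligands act beside the granules as another way to kill a target cell. Tnfsf10, which encodes TRAIL, had log2 signals of 8.39, 8.65 and 8.15 in PBS and 9.75, 9.64 and 9.28 in HDM and rose 2.23-fold (1.16 ± 0.17 SE, limma adjusted p = 0.0109). Tnfsf14, which encodes LIGHT, rose 1.96-fold (0.97 ± 0.20, limma adjusted p = 0.0379). Neither overlapped between groups, and the other 4 of 6 genes did not pass. Fasl, the Fas ligand, differed by −0.54 (limma adjusted p = 0.15) and was lower with the block (0.0243), named after its values were seen. Over the 6 lists together, 8 of 61 measured genes were higher and 2 lower with limma, against 2.39% and 1.56% of all genes, and 18 and 7 with the block, against 5.95% and 6.01%. Without 1 array the 8 became 1 to 12 and the 2 became 1 to 5, while over all genes 177 to 845 were higher and 41 to 722 lower. Bach2 kept its call without any single array, Tnfsf14 lost it without any array other than HDM replicate 3 (limma adjusted p up to 0.143), Tnfsf10 without either array numbered 1 or HDM replicate 2 (up to 0.0602), Il15ra without any one of the arrays numbered 1 or 2 (up to 0.0771) and Bhlhe40 without either array numbered 1 or PBS replicate 2 (up to 0.0851).

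The genes whose pattern over the 6 arrays was most like that of Gzma, by Pearson's r among 554 genes with signals above the median and an SD of at least 0.5, were Gbp11 (r = 0.996), Rflnb (0.992) and Mctp2 (0.992). Prf1 was most like Sfrp2 (0.987), Klrd1 (0.986) and Satb1 (0.982), and Gzmb most like Tnfrsf4 (0.981), Stx11 (0.961) and Havcr2 (0.957), among 553 genes for Gzmb. These r values describe 6 arrays that share the split into HDM and PBS. Tnfrsf4, the costimulatory receptor OX40, had log2 signals of 10.05, 10.33 and 10.62 in PBS and 10.68, 11.04 and 11.49 in HDM. As for Gzmb, replicate 3 was the highest in both groups, as it was for 19.1% of all genes. Since Tnfrsf4 was picked for its likeness to Gzmb on these arrays, this is not a separate result.

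Markers of other cells that carry granule genes were measured on the same arrays. Beside the counts for these lists, 2.39% of all genes were higher and 1.56% lower with limma. With the block these shares were 5.95% and 6.01%. Of 18 natural killer markers 1 fell, Klrd1, the CD94 receptor chain (−1.21 ± 0.23 SE, limma adjusted p = 0.0317), and 17 did not pass. Klrd1 lost the call without any array other than HDM replicate 3 (limma adjusted p up to 0.128). With the replicate number as a block 3 fell, Klrd1, Klrc1 (limma adjusted p = 0.0167) and Ccl5 (0.00276), and Itga2 rose (0.0163); Klrc1, Ccl5 and Itga2 were named after their values were seen. The summed linear signal of these 18 genes was 9361, 10904 and 14712 on PBS replicates 1, 2 and 3 and 7333, 6735 and 11979 on the HDM replicates. It was lower in HDM in all 3 pairs of same-numbered arrays, although the ranges overlapped. Without Ccl5, the brightest gene of the list, the sums were 3489, 3995 and 6652 in PBS and 3900, 3537 and 6545 in HDM, lower in HDM in 2 of 3 pairs. The defining marker Ncr1 had log2 signals of 6.62, 6.42 and 7.07 in PBS and 6.25, 6.003 and 7.49 in HDM, and Klrb1c, which encodes NK1.1, stayed between 5.30 and 5.54. Klrb1c lay below the 25th percentile of gene means. Of the 18 markers, 11 were highest on replicate 3 in both groups, as were 7 of the 9 granule genes and 19.1% of all genes. So were 3 of 3 B cell, 4 of 5 plasmacytoid, 7 of 10 myeloid and 5 of 11 mast cell and basophil markers. The other lists had 2 of 5 (CD8, gamma delta and NKT), 1 of 4 (endothelial and epithelial), 1 of 6 (regulatory T) and 2 of 8 (CD4 T). The part of natural killer cells in the falls of Gzma and Prf1 was not tested.

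Of 5 measured markers of CD8, gamma delta and NKT cells, Zbtb16, the factor PLZF of NKT cells, fell (−0.72 ± 0.12 SE, limma adjusted p = 0.0167), and 4 did not pass, Cd8a (0.06) and Cd8b1 (0.01) among them. Their summed signal was 1120 to 1348 in PBS and 982 to 1460 in HDM. Zbtb16 missed the threshold without PBS replicate 1, HDM replicate 1 or HDM replicate 2 (limma adjusted p up to 0.0826). Mast cells and basophils, which store serglycin and proteases in granules, gave 0 calls among 11 markers with limma and 0 at an unadjusted p below 0.05, and 1 higher and 1 lower with the block. Hdc (0.56 ± 0.28) and Gata2 (−0.50 ± 0.31) had the largest differences of that list, and its sum was 522 to 794 in PBS and 549 to 781 in HDM. Mcpt8, a protease of basophils, stayed between 5.25 and 5.54 on all 6 arrays, below the 25th percentile of gene means. Of the 11 markers only 3 lay above that percentile, so most of this list had dim signals in which a change could be missed.

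Granzyme B can be made by regulatory T cells, whose markers were counted for that reason. Of 6, 3 rose and 3 did not pass, against 2.39% higher over all genes, and 5 rose with the block, against 5.95%. The 3 were Il2ra (1.16 ± 0.10 SE, limma adjusted p = 0.00245), Foxp3 (0.83 ± 0.11, 0.00851) and Ikzf2 (0.76 ± 0.14, 0.0284). The summed signal of all 6 markers was 8254 to 9415 in PBS and 12756 to 16302 in HDM, without overlap. The part of regulatory T cells in the Gzmb values was not tested. Ikzf2 lost the call without any array other than HDM replicate 3 (limma adjusted p up to 0.101). Of 10 myeloid markers Chil3, a chitinase-like protein of macrophages, rose (2.11 ± 0.38, limma adjusted p = 0.0248), and 9 did not pass. It missed the threshold without any one of the arrays numbered 1 or 2 (limma adjusted p up to 0.11). The myeloid sum was 3972 to 4937 in PBS and 6546 to 8020 in HDM. Without Chil3 it was 3181, 3321 and 4594 on PBS replicates 1, 2 and 3 and 4904, 3379 and 5610 on the HDM replicates. These ranges overlapped, and each HDM array was above the PBS array of the same number. With the block 2 of the 10 markers rose, against 5.95% of all genes. They were Chil3 and Csf1r (limma adjusted p = 0.0488), the latter named after its values were seen. The part of myeloid cells in the rise of Cd63 and Ctsb, which macrophages express strongly, was not tested.

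**Figure D4:**
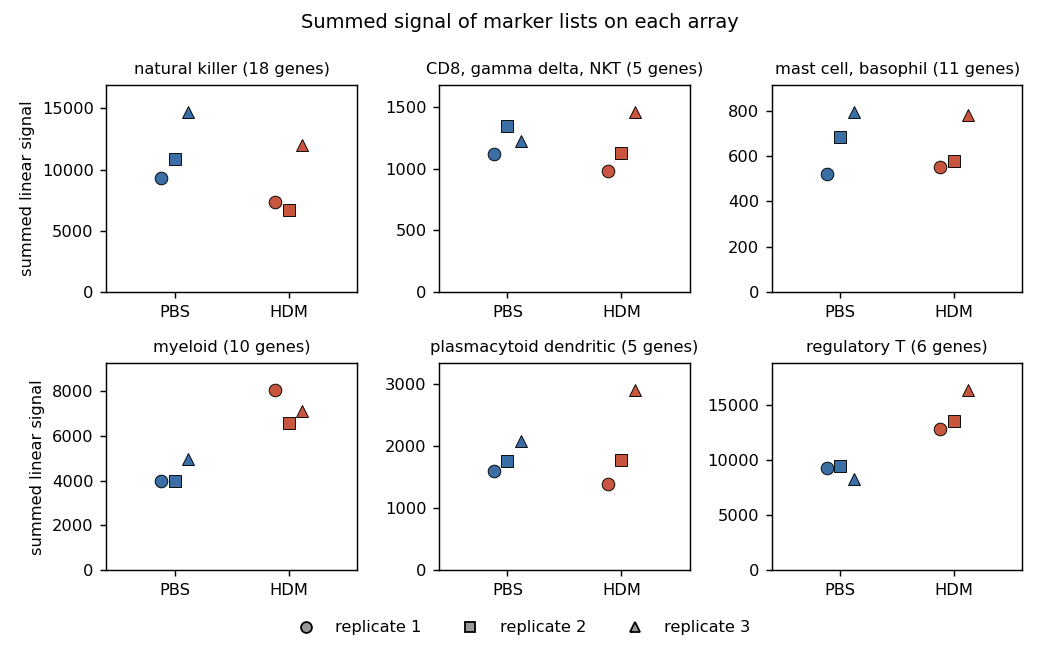
Summed linear signal (vertical axis, from 0) of 6 marker lists on each array, with symbols for the replicate number. The natural killer, CD8, mast cell and plasmacytoid sums overlap between PBS and HDM, while the regulatory T cell and myeloid sums are higher on all 3 HDM arrays. Without Chil3 the myeloid sum overlaps (3181 to 4594 in PBS, 3379 to 5610 in HDM), with each HDM array above the PBS array of the same number.

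Plasmacytoid dendritic cells, which make granzyme B, gave 0 calls among 5 markers with limma, 0 with the block and 0 at an unadjusted p below 0.05. Ly6d (0.22 ± 0.34) and Cox6a2 (0.21 ± 0.16) had the largest differences, and the sum was 1601 to 2083 in PBS and 1390 to 2906 in HDM, highest on HDM replicate 3. Of 3 B cell markers 0 were called with limma, 0 with the block and 0 at an unadjusted p below 0.05, with Ms4a1 (0.45 ± 0.33) and Cd79b (0.33 ± 0.26) leading, and their sum was 514 to 852 in PBS and 480 to 1487 in HDM. Of 4 endothelial and epithelial markers Pecam1, an adhesion molecule, fell (−0.51 ± 0.08 SE, limma adjusted p = 0.0169), and with the block 3 fell. Pecam1 lay between 11.58 and 11.64 on the PBS arrays, while the endothelial marker Cdh5 was 8.59, 9.94 and 10.27 there. The part of endothelial cells in the fall of Pecam1 was not tested. Pecam1 missed the threshold without any one of the arrays numbered 1 or 2 (limma adjusted p up to 0.0961). In the CD4 T identity list Cd3d (0.22 ± 0.13) and Cd3g (0.19 ± 0.06) had the largest differences.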

How the data were processed

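Lung CD4 T cells of 3 HDM and 3 PBS samples, grouped by the labels' titles, were measured on arrays. The authors deposited RMA values, 1 log2 signal for each probe set and array, per the submitters' processing notes; version, genome build, filters and detection calls are not given in the sources used here. RMA equalises the distributions of the arrays, whose medians were 6.57 to 6.64, so a change in total RNA cannot be seen.

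Of 33960 probe sets, 23521 had exactly 1 symbol in the platform annotation, 1814 several and 8625 none; the brightest per gene by mean over the 6 arrays was kept, giving 22180 genes. 1 further probe set that names a member together with another gene was not used. Differences were tested genome-wide with limma 3.58.1 in R 4.3.3 (lmFit, eBayes with intensity trend, two-sided), with Benjamini-Hochberg adjustment over all genes. The number of arrays limits the precision. The test was tested on simulated data with noise drawn independently for each gene and array. Effects shared by arrays of the same number were not simulated, so the simulation does not cover them. The members and lists were chosen with earlier results of these data known, and some listed genes were not analysed here.

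Named genes were the 9 members, up to 4 called genes per list by size of change (the 2 largest where none was called), and the 3 genes most like Gzma, Gzmb and Prf1, without predicted genes, small RNAs, receptor segments of lymphocytes and odorant receptors. Across genes, the deviations from the group means of arrays that share a number correlated at 0.43, 0.17 and 0.53. Each was above 0.1, so a fit with the numbers as a block was given beside the main fit. This rests on the same data, and the labels do not say what the numbers share. Arrays of different numbers were not compared in this way, so the values cannot show that the samples were paired. No 2 arrays shared more than 5 identical values. Alternatives were dim filters, normalization, variance models, array weights, probe set choice, the replicate block and leaving out arrays. The sums of the myeloid and natural killer markers without Chil3 or Ccl5 were added after seeing the data.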

Additional observations from a re-analysis of the deposited data

How the results depend on the processing

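Gzma was called lower under every alternative that kept it, with adjusted p up to 0.0346, and the filter at the median signal left out Gzma and Gzmm. That filter left 1 member called lower. With array weights Gzmb was called (1.32), 2 members were higher, and 15 pathway genes were higher and 4 lower, with 914 and 923 over all genes (531 and 345 as reported). With adjustment over all probe sets Prf1 lost the call (−0.82, adjusted p = 0.0529), 1 member was lower and 5 pathway genes were higher, with 448 higher and 238 lower over all probe sets, a setting that tests more features. With the replicate block, Gzmb (1.30) and Serpinb9 (−0.58) were called, 2 members were higher, and 18 pathway genes were higher and 7 lower, with 1319 and 1334 over all genes; no member lost a call. Without both arrays numbered 3, Gzmb (1.32) and Serpinb9 (−0.70) were called too, 2 members were higher, and 18 pathway genes were higher and 7 lower, with 1250 and 1326 over all genes. Leaving out 1 array, Prf1 ranged from −0.98 to −0.74, Ctsw from 0.67 to 0.82, Serpinb9 from −0.91 to −0.37, and Nkg7 from −0.37 to 0.10, which changed its sign; 0 to 1 members were higher, 1 to 3 lower, 1 to 12 pathway genes higher and 1 to 5 lower, and over all genes 177 to 845 higher and 41 to 722 lower. The causes were not tested. No scaling moved the median of all genes by over 0.1. With 3 arrays per group, no exact permutation test can fall below 0.1.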
